A study of Mus musculus with 8 samples.

Results

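A set of 10 immediate early genes that are named less often than *Fos* or *Arc* was followed in RNA-seq of bulk RNA from whole mouse brains: *Egr2*, *Egr3*, *Egr4*, *Nr4a2*, *Nr4a3*, *Jun*, *Jund*, *Btg2*, *Ier2* and *Dusp1*. They were matched by gene symbol, and all 10 were among the 24343 genes of the deposited table. The samples were whole brains of 3 C57BL/6NCrl mice aged 56 to 62 days, with 3 libraries each from mice 1 and 2 and 2 libraries from mouse 3. All mice belonged to a single condition, without treatment or manipulation in the labels, and were kept on 12 h of light and 12 h of dark. The methods state that animals of the study were killed in the hours from the onset of darkness and that both sexes were used, and no sex is labelled for these 3. The meaning of the library number is not stated. The libraries of a mouse are therefore repeats of a brain and not separate animals, and all p-values below measure only the spread between these libraries.

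Immediate early genes are switched on within minutes of a stimulus by transcription factors that are already present in the cell, so no new protein is needed for their first wave of transcription. In neurons, calcium entry and kinase signalling act on factors such as CREB, bound to cyclic AMP response elements (CRE), and SRF, bound to CArG boxes. Many of the products are transcription factors that carry the response on to later genes, and their mRNAs are as a rule short-lived. The genes described fall into 3 transcription factor families, the EGR zinc-finger factors, the NR4A orphan nuclear receptors and the JUN components of AP-1, together with *Btg2*, an antiproliferative cofactor of mRNA deadenylation, *Ier2*, a nuclear regulator of transcription, and *Dusp1*, a phosphatase that inactivates MAP kinases.

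Regulatory sequence immediately before the transcription start was read for 8 of the 10 genes from RefSeq (GRCm38.p6), in windows from 250 bases before to 50 bases after the start. The 250 bases before the start of the 5 windows with a complete CRE, a CArG box or 4 CRE cores are shown 5′ to 3′ on the strand of the gene, with the matches in capitals: the CRE (TGACGTCA), the CRE core (TGACG, or CGTCA on the other strand) and the CArG box. The sequences lie at chr10:67537619-67537868 (+ strand) for *Egr2*, chr2:57124004-57124253 (- strand) for *Nr4a2*, chr4:48045055-48045304 (+ strand) for *Nr4a3*, chr1:134079156-134079405 (- strand) for *Btg2* and chr17:26508473-26508722 (- strand) for *Dusp1*.
Egr2: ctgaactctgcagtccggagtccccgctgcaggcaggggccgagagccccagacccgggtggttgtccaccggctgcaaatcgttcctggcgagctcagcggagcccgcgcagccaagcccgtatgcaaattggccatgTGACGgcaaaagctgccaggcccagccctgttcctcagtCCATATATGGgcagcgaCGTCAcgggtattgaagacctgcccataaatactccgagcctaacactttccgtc
Nr4a2: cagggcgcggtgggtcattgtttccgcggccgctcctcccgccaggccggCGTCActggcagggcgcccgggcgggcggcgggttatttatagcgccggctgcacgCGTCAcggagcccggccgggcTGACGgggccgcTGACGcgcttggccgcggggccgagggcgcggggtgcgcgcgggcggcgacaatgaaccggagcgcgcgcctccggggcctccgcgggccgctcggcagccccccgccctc
Nr4a3: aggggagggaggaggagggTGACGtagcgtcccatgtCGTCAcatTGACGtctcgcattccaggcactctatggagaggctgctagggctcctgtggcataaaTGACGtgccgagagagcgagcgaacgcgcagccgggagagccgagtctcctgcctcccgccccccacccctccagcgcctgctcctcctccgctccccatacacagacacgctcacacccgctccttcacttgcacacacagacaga
Btg2: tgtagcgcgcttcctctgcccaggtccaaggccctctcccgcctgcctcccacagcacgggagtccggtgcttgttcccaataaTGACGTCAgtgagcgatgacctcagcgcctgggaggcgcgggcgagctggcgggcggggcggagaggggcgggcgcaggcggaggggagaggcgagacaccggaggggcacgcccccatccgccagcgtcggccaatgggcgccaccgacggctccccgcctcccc
Dusp1: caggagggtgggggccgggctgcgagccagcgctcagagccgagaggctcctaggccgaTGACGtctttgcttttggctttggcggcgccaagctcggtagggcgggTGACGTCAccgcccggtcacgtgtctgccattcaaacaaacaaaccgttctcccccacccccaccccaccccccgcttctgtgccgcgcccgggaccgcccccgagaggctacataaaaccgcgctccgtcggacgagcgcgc

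A complete CRE stood in 2 of the 8 windows, 166 bases before the start of *Btg2* and 143 bases before the start of *Dusp1*, counted from the first base of the match. Among 20753 windows of genes in the table, 2.32% held one. Cores, which a complete CRE contains on each strand, were present in 6 of 8 windows against 24.2% of all windows. *Nr4a2* and *Nr4a3* had 4 each, *Egr2* and *Egr4* had 2 each, and the windows of *Jun* and *Jund* had none. The window of *Nr4a2* was that of its upstream start, and no window was read at the start of its other transcript. The start used for *Egr4* lay 47 bases from that of its deposited transcript. The bases shown before the start of *Jund*, that of its only deposited transcript, had 47.6% GC, against 61.2 to 80.0% in the other windows. No other start of *Jund* was read. The only CArG box among the 8 was that of *Egr2*, 72 bases before its start, and 1.45% of all windows held one. The site bound by EGR factors themselves (GCGTGGGCG or GCGGGGGCG), the AP-1 site TGACTCA and the NR4A site AAAGGTCA were in 0 of 8 windows, against 4.67%, 4.84% and 1.36% of all windows. The letters TATAAA were found in the window of *Nr4a2* only, 164 bases before its start, against 12.1% of all windows. Both strands were searched for each motif, and a match describes letters in the window and not a bound factor.

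Levels were compared as FPKM, the estimated fragments per kilobase of transcript scaled to the depth of the library, a unit per transcript length in which genes can be set side by side. *Jund* was the most abundant of the 10, at 27.9 ± 3.85 FPKM (mean ± SD, n = 3 mice), and *Egr2* the least, at 0.336 ± 0.102 FPKM. *Egr3* (14.3 ± 3.35 FPKM) and *Jun* (13.4 ± 1.67 FPKM) formed the next tier, followed by *Dusp1* (6.72 ± 0.572 FPKM) and *Nr4a2* (6.64 ± 1.30 FPKM). The lowest tier of the readily detected genes held *Btg2* (3.34 ± 0.293 FPKM), *Nr4a3* (2.97 ± 0.698 FPKM), *Ier2* (2.58 ± 0.0903 FPKM) and *Egr4* (2.37 ± 0.610 FPKM). Across the 13001 genes whose level averaged 1 FPKM or more, the median was 8.81 FPKM, and 3 of the 10 genes, *Jund*, *Egr3* and *Jun*, lay above it. *Egr2* was below that minimum, so 9 of the 10 genes entered the tests.

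Neighbours in this order were often not separable. *Jund* exceeded *Egr3* in 8 of 8 libraries (1.95-fold on the means), *Jun* exceeded *Dusp1* in 8 of 8 (2.0-fold), *Nr4a2* exceeded *Btg2* in 8 of 8 (1.99-fold) and *Egr4* exceeded *Egr2* in 8 of 8 (7.04-fold). In contrast, *Egr3* and *Jun* differed by 1.06-fold, with *Egr3* higher in 7 of 8 libraries but lower on the mean of mouse 3. *Dusp1* and *Nr4a2* differed by 1.01-fold and *Dusp1* was higher in 2 of 8 libraries. The 4 genes from *Btg2* to *Egr4* followed each other at 1.12-fold, 1.15-fold and 1.09-fold, and none of these steps had the same direction in all 3 mice.

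**Figure D1:**
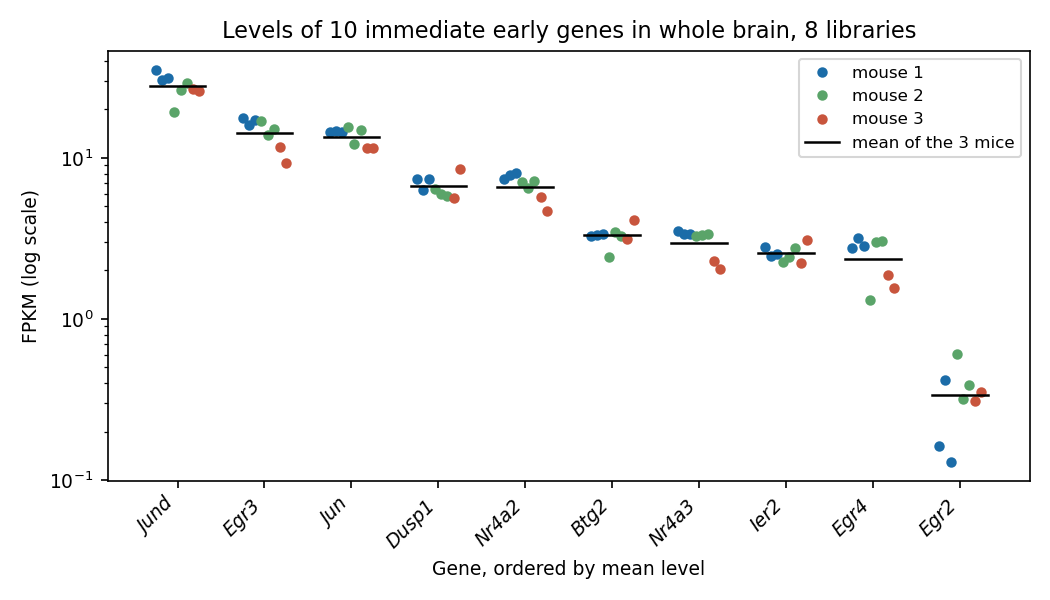
Level of each of the 10 genes in the 8 whole-brain libraries, in FPKM on a log axis, with genes ordered by mean level. Points are libraries, coloured by mouse, and the black bar is the mean of the 3 mouse means; *Jund* is at the top at 27.9 FPKM, *Egr2* at the bottom at 0.336 FPKM, and both libraries of mouse 3 lie below the other 6 for *Egr3*, *Nr4a2*, *Nr4a3* and *Jun*.

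The EGR factors bind a shared GC-rich site through 3 zinc fingers and were unequal in level. Together with *Egr1*, the best known of the family, *Egr3* made up nearly all of the summed EGR level: *Egr1* held 54.0 ± 2.51% and *Egr3* 38.6 ± 1.98% (SD, n = 3 mice), against 6.37 ± 0.389% for *Egr4* and 0.964 ± 0.395% for *Egr2*. *Egr1* exceeded *Egr3* in 8 of 8 libraries, by 1.40-fold on average, and *Egr3* exceeded *Egr4* by 6.07-fold.

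*Egr3*, which in the brain acts in activity-dependent plasticity and in the periphery in muscle spindle formation, lies on chromosome 14 (mm10 chr14:70077445-70082613). Its level was 17.7, 16.0 and 17.2 FPKM in the libraries of mouse 1, 17.1, 13.9 and 15.2 FPKM in those of mouse 2, and 11.8 and 9.34 FPKM in those of mouse 3. The 2 libraries of mouse 3 were the lowest of the 8, with no overlap. In limma's moderated F-test between the 3 mice, on log2(FPKM + 1), *Egr3* differed with a Benjamini-Hochberg adjusted p of 0.0163. Mouse 3 was lower than the mean of the other 2 mice by a log2 difference of -0.58 (SE 0.11), and its mean FPKM was 0.652 of theirs. The pairwise limma differences were -0.64 against mouse 1 (adjusted p = 0.00829) and -0.51 against mouse 2 (adjusted p = 0.0161).

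*Egr4*, a family member expressed mainly in the nervous system (chr6:85511122-85513542), had 2.76, 3.20 and 2.82 FPKM in mouse 1, 1.32, 3.01 and 3.05 FPKM in mouse 2, and 1.89 and 1.55 FPKM in mouse 3. Library 1 of mouse 2 was the lowest of all, below both libraries of mouse 3, so the mice overlapped. Mean FPKM in mouse 3 was 0.638 of that in the other mice. The difference of mouse 3 was -0.42 (SE 0.20) on the log2 scale and did not pass the limma test (adjusted p = 0.212). Without library 1 of mouse 2 it was -0.55 with an adjusted p of 0.0101 in limma. That library also had the lowest *Jund* and *Btg2* levels, and it departed from the other libraries with base composition: across 12949 genes its deviations had a Spearman's rho of -0.33 with GC content, against -0.07 to 0.19 in the other 7. GC content was read from the matched GENCODE transcript closest in length. Those of *Jund* and *Btg2* did not qualify for the 3′ count below, so their values may not be those of the deposited transcripts. Read in this way, *Egr4* and *Jund* had 68.2% and 67.1% GC, each above 99.8% of tested genes. *Btg2* had 49.7%, near the median of 50.4%. With the trend with GC content removed, neither *Egr4* nor *Jund* passed (limma adjusted p = 0.0944 and 0.190), and the part of base composition in the low values of this library was not tested.

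*Egr2*, known for its role in peripheral myelination and hindbrain patterning (chr10:67537869-67542188), had 0.164, 0.417 and 0.130 FPKM in mouse 1, 0.608, 0.320 and 0.392 FPKM in mouse 2, and 0.310 and 0.353 FPKM in mouse 3. The libraries of a single mouse spanned more than the mouse means did, and the highest library was 4.68 times the lowest. Only 0.911 to 2.74 kilobases were read on its transcript per library, estimated as coverage multiplied by length, compared with 76.2 to 163 kilobases for *Egr3*. No difference between mice was detected: without the minimum level, the limma test gave an adjusted p of 0.393. On log2(FPKM + 1), differences at such low levels are compressed, and the part of depth was not tested.

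The NR4A receptors have no known classical ligand and are thought to act through their amount, which is set mainly by transcription. In the summed NR4A level, *Nr4a1* held 42.7 ± 3.18%, *Nr4a2* 39.6 ± 1.55% and *Nr4a3* 17.7 ± 1.79% (SD, n = 3 mice). *Nr4a1*, the family member used most often as a marker of activity, exceeded *Nr4a2* in only 5 of 8 libraries, with a ratio between 0.85 and 1.53. *Nr4a2* exceeded *Nr4a3* in 8 of 8 libraries, by 2.25-fold on average and with little spread (1.94 to 2.53).

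*Nr4a2*, or Nurr1, is required for midbrain dopamine neurons and is also expressed in cortical and claustral neurons (chr2:57107226-57124003). Its level was 7.41, 7.79 and 8.10 FPKM in mouse 1, 7.08, 6.48 and 7.21 FPKM in mouse 2, and 5.75 and 4.69 FPKM in mouse 3. The libraries of mouse 3 were again below the other 6. The limma F-test gave an adjusted p of 0.0207, the difference of mouse 3 was -0.43 (SE 0.09) on the log2 scale and its mean FPKM was 0.710 of that of the others. Against mouse 1 the pairwise adjusted p was 0.00975 and against mouse 2 it was 0.0271 in limma.

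*Nr4a3*, or Nor1 (chr4:48045305-48086446), is closely related to *Nr4a2*. It was at 3.50, 3.39 and 3.36 FPKM in mouse 1, 3.29, 3.34 and 3.36 FPKM in mouse 2, and 2.28 and 2.06 FPKM in mouse 3. The first 6 libraries were nearly level and those of mouse 3 stood apart. Limma gave an adjusted p of 0.00942 and a log2 difference of -0.47 (SE 0.07), and mean FPKM in mouse 3 was 0.642 of that in the other mice. The confidence bounds that the authors deposited for its main transcript, NM_015743, did not meet either: the highest upper bound in mouse 3 was 2.64 FPKM and the lowest lower bound in mice 1 and 2 was 2.80 FPKM, at a confidence level that is not stated. Its short second transcript, NM_001307989, was at 0.000341 FPKM at most.

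The 3 genes that differed, *Egr3*, *Nr4a2* and *Nr4a3*, were 33.3% of the 9 tested. Over all 13001 genes, 25.5% differed between the mice by the same rule, and 11.3% differed and were lowest in mouse 3, as all 3 of these genes were. The median difference of mouse 3 was -0.29 on the log2 scale over the 9 genes and 0.02 over all tested genes, and 5 of the 9 were lowest in mouse 3 compared with 42.4% of tested genes. Of all genes that differed, 55.4% were higher in mouse 3. When FPKM were rescaled to TPM, the share of a library's summed transcript level, the median of all genes shifted to -0.24 and that of the 9 genes to -0.60, and only 12.6% of the genes that differed were higher in mouse 3. *Egr3*, *Nr4a2* and *Nr4a3* still differed after this rescaling (limma adjusted p = 0.0108, 0.00988 and 0.00743), where 35.1% of 14770 tested genes were called. Mice 1 and 2 did not differ detectably from each other in any of the 9 genes (limma adjusted p = 1 for each), and 1 gene of the 13001 passed that comparison. A limma fit of these 2 mice alone also called 0 of the 9, with 1, *Jund*, at an unadjusted p under 0.05.

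**Figure D2:**
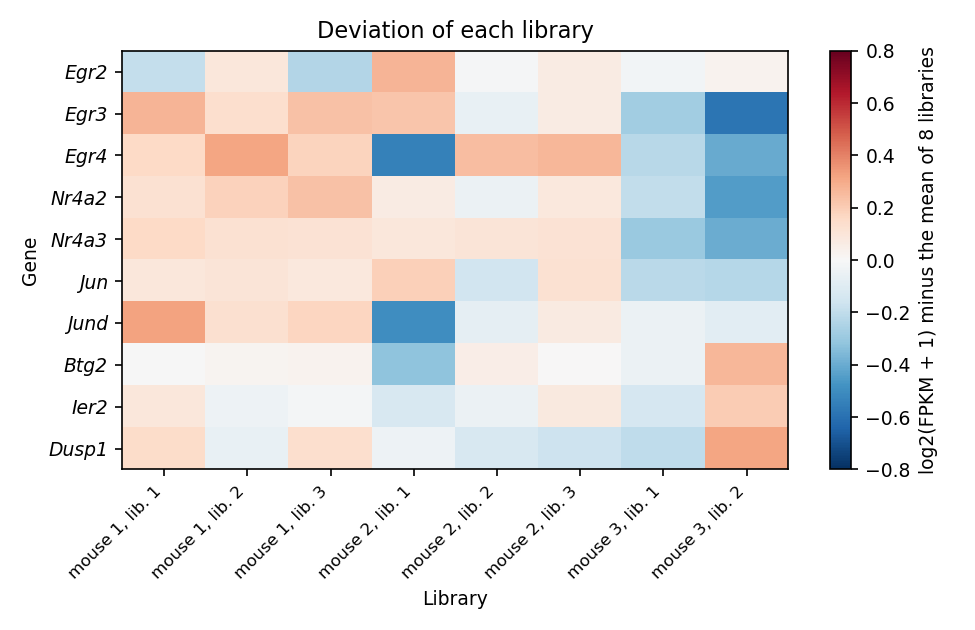
Deviation of each library from the mean of the 8 libraries for each of the 10 genes, in log2(FPKM + 1), with red above and blue below the mean. *Egr3*, *Nr4a2*, *Nr4a3* and *Jun* are blue in both libraries of mouse 3, *Egr4*, *Jund* and *Btg2* are at their lowest in library 1 of mouse 2, and *Btg2*, *Ier2* and *Dusp1* are at their highest in library 2 of mouse 3.

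Some calls changed when a library was left out. Without library 2 of mouse 3, that mouse is a single library assumed to vary like those of mice 1 and 2, and 0 of the 9 genes passed (limma adjusted p = 0.127 for *Egr3*, 0.119 for *Nr4a2* and 0.0684 for *Nr4a3*), although the same 3 had an unadjusted p under 0.05, and over all genes 126 were then called. The log2 differences without it were -0.42 for *Egr3*, -0.30 for *Nr4a2* and -0.42 for *Nr4a3*. The call for *Nr4a2* was also lost without library 2 or library 3 of mouse 1 (limma adjusted p = 0.0575 and 0.0612), with differences of -0.43 and -0.41 beside -0.43 with all libraries.

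Mouse 3 also differed from mice 1 and 2 in markers of brain cell types. The summed level of 6 neuron markers was 1613 and 1694 FPKM in its libraries and 1877 to 2031 FPKM in the others, with 3 of the 6 markers called in limma, all lowest in mouse 3. All 5 astrocyte markers were called and highest in mouse 3 (summed 523 and 559 FPKM against 346 to 368 FPKM), as were 3 of 5 oligodendrocyte markers (3960 and 4871 FPKM against 2062 to 2290 FPKM) and 2 of 5 microglial markers (61.4 and 61.5 FPKM against 47.0 to 54.8 FPKM). Among 5 endothelial and 5 blood markers, 1 each was called and highest in mouse 3, among 5 choroid plexus markers 1 was called and lowest, and the single testable pituitary marker was not called. No marker was at 0 in all libraries. Over all tested genes, 25.5% were called. FPKM summed over all genes were also higher in mouse 3, at 3.849e+05 and 4.099e+05 in its libraries and 2.955e+05 to 3.456e+05 in the others. The marker sums above are not scaled to these totals. In bulk RNA, fewer cells of a type and less RNA per cell cannot be told apart, and the part of cell composition in the lower *Egr3*, *Nr4a2* and *Nr4a3* levels was not tested.

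Transcript length moved with the mice as well. Across the 13001 genes, the deviations of the libraries of mouse 3 had a Spearman's rho with transcript length of -0.36 and -0.57, and those of the other 6 libraries had 0.18 to 0.50. The leading transcripts of *Egr3* (3872 nt) and *Nr4a3* (5569 nt) were longer than the median of 2845 nt, and that of *Nr4a2* (3026 nt) was close to it. With the trend with length removed, *Egr3*, *Nr4a2* and *Nr4a3* were still called (limma adjusted p = 0.0332, 0.0261 and 0.0191). Their log2 differences were then -0.50, -0.41 and -0.31, beside -0.58, -0.43 and -0.47 with the trend kept. The removal takes out only an average trend over genes, and the part of transcript length in these differences was not tested.

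*Egr3* and *Nr4a2* are each annotated with more than 1 transcript, and the authors' estimation divided their reads among these. In *Egr3*, NM_018781 held 50.8 to 82.9% of the level, NM_001289927 7.69 to 33.4% and NM_001289925 3.83 to 21.4%. In *Nr4a2*, the transcript with the upstream start, NM_001139509, held 33.3 to 82.0% and NM_013613, which starts within the locus, 18.0 to 66.7%, and both extremes came from libraries of mice 1 and 2. In mouse 2, for instance, NM_001139509 was at 2.36, 4.44 and 4.85 FPKM in the 3 libraries while the sum was at 7.08, 6.48 and 7.21 FPKM. Tested by the highest transcript alone, neither gene passed (limma adjusted p = 0.113 for *Egr3* and 0.605 for *Nr4a2*), with log2 differences of -0.36 and -0.09, so that these results hold for the sum over transcripts. *Nr4a3* passed by its highest transcript (limma adjusted p = 0.0171).

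**Figure D3:**
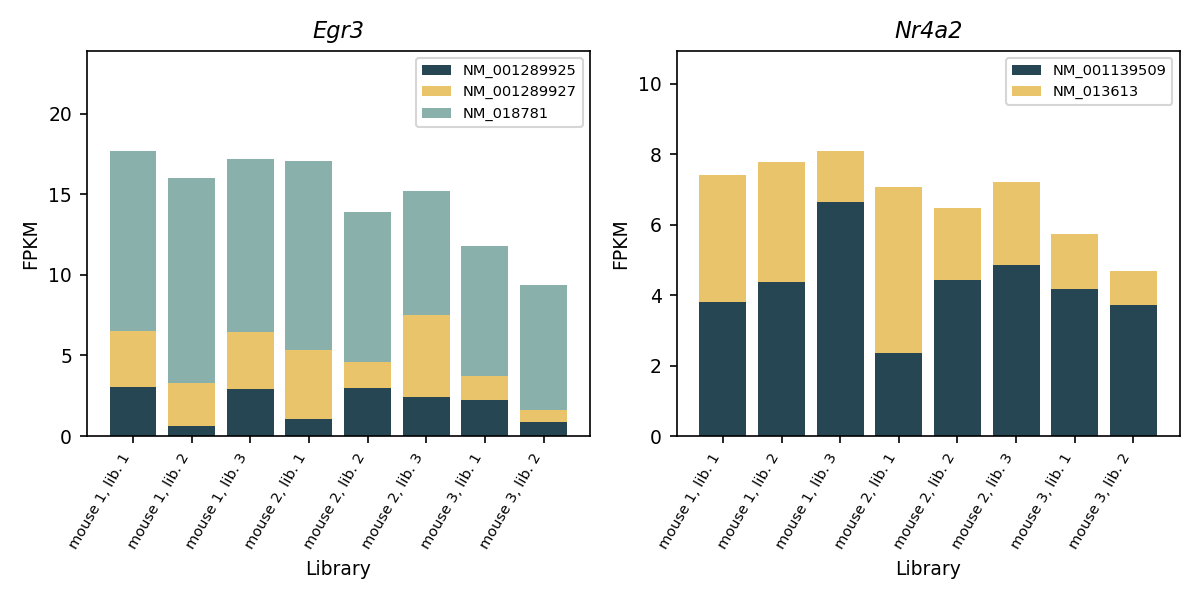
Estimated FPKM of each annotated transcript of *Egr3* (left) and *Nr4a2* (right), stacked for each library. The height of a bar is the gene's level and is lowest in the libraries of mouse 3 (11.8 and 9.34 FPKM for *Egr3*, 5.75 and 4.69 FPKM for *Nr4a2*), while the division between transcripts changes among libraries of the same mouse.

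The JUN proteins dimerize with FOS proteins or with each other to form AP-1. *Jund*, the family member least dependent on stimulation, held 56.9 ± 3.71% of the summed JUN level, *Jun* 27.6 ± 2.42% and *Junb* 15.5 ± 1.53% (SD, n = 3 mice). *Jund* exceeded *Jun* in 8 of 8 libraries, by 1.24-fold to 2.41-fold, and was on average 12.3 times as abundant as *Fos*. *Jun*, *Jund* and *Ier2* have no introns, a property of 3.52% of tested genes, so that splicing cannot separate precursor RNA from mRNA for them.

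*Jun* (chr4:95049036-95052222) was at 14.6, 14.7 and 14.5 FPKM in mouse 1, 15.7, 12.1 and 14.9 FPKM in mouse 2, and 11.6 and 11.5 FPKM in mouse 3. Both libraries of mouse 3 were below the other 6, but library 2 of mouse 2 came close to them. The log2 difference of -0.29 (SE 0.10) did not pass the limma test (adjusted p = 0.107). It passed without library 2 of mouse 2 (limma adjusted p = 0.0418) and on the TPM scale (limma adjusted p = 0.0306).

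*Jund* (chr8:70697739-70700616) was at 35.0, 30.4 and 31.4 FPKM in mouse 1, 19.4, 26.4 and 29.2 FPKM in mouse 2, and 26.8 and 26.1 FPKM in mouse 3. The libraries of mouse 1 were the 3 highest, and those of mice 2 and 3 overlapped. The difference of mouse 3 from the others was -0.09 (SE 0.14) on the log2 scale, that of mouse 2 from mouse 1 was -0.37 (SE 0.14), and the F-test of limma gave an adjusted p of 0.147. On the TPM scale the difference of mouse 3 was -0.38 and the adjusted p in limma 0.0326.

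*Btg2*, *Ier2* and *Dusp1* did not share the pattern of *Egr3* and the NR4A genes. *Btg2* (chr1:134074865-134079155) had 3.27, 3.34 and 3.36 FPKM in mouse 1, 2.42, 3.45 and 3.29 FPKM in mouse 2, and 3.14 and 4.13 FPKM in mouse 3. *Ier2* (chr8:84661331-84662852) had 2.79, 2.45 and 2.52 FPKM in mouse 1, 2.26, 2.44 and 2.75 FPKM in mouse 2, and 2.23 and 3.09 FPKM in mouse 3. *Dusp1* (chr17:26505591-26508472) had 7.43, 6.33 and 7.37 FPKM in mouse 1, 6.42, 5.97 and 5.79 FPKM in mouse 2, and 5.64 and 8.49 FPKM in mouse 3.

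For each of these 3 genes library 2 of mouse 3 was the highest of the 8, and for *Ier2* and *Dusp1* library 1 of the same brain was the lowest. None differed between the mice in limma (adjusted p = 0.496 for *Btg2*, 0.884 for *Ier2* and 0.473 for *Dusp1*). The log2 differences of mouse 3 were 0.14 (SE 0.12), 0.04 (SE 0.10) and 0.08 (SE 0.13), and on the TPM scale their sign turned (-0.10, -0.21 and -0.20). *Ier2* had the smallest coefficient of variation between mice of the 10 genes, 3.50%, compared with a median of 12.3% over tested genes, although its libraries within mouse 3 differed more than its mouse means did.

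The better-known immediate early genes divided in a similar way. *Egr1* had the largest difference of mouse 3 among the genes plotted, -0.82 (SE 0.07) on the log2 scale with a limma adjusted p of 0.00511, and *Junb* differed by -0.39 (SE 0.11) with a limma adjusted p of 0.0453. *Nr4a1* (limma adjusted p = 0.343), *Arc* (0.164) and *Fos* (0.951) did not pass. *Fosb*, at 0.969 FPKM, and *Npas4*, at 0.921 FPKM, were below the minimum level and not tested. *Npas4* was at 0.556 and 0.883 FPKM in the libraries of mouse 3 and at 0.923 to 1.18 FPKM in the others, and those of *Fosb* overlapped.

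**Figure D4:**
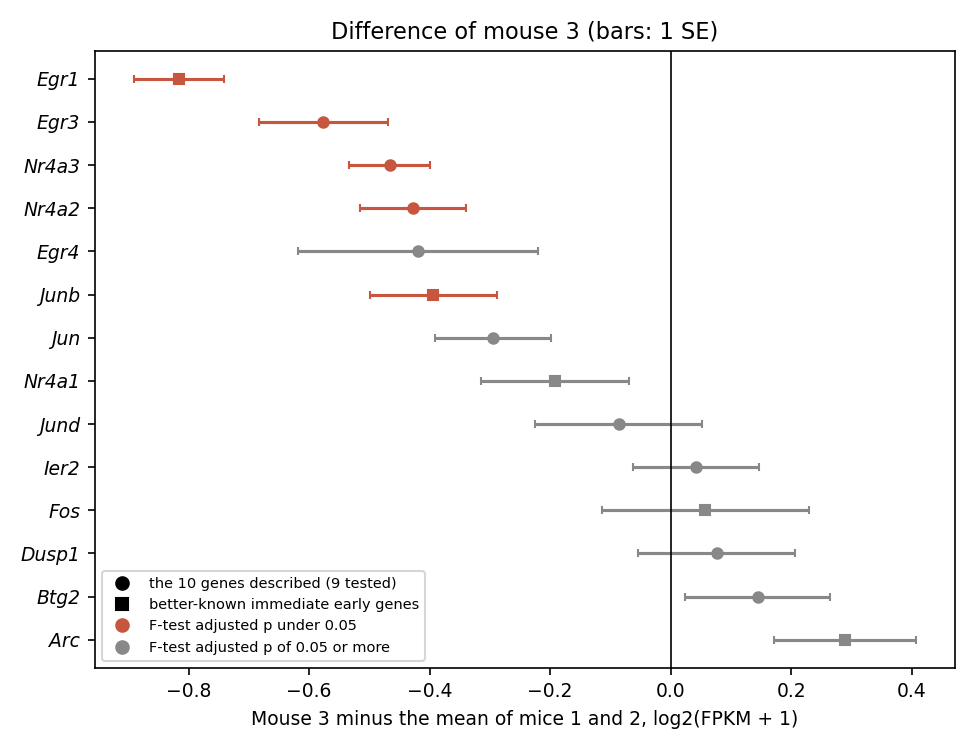
Log2 difference of mouse 3 from the mean of mice 1 and 2, on log2(FPKM + 1), for the 9 genes tested (circles) and 5 better-known immediate early genes (squares), with bars of 1 SE. Red marks an adjusted p under 0.05 in limma's F-test between the 3 mice: *Egr3* (-0.58), *Nr4a3* (-0.47) and *Nr4a2* (-0.43) among the genes described, with *Egr1* (-0.82) and *Junb* (-0.39).

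In a wider list of 49 other immediate early and activity-regulated genes, 43 were tested and 8 (18.6%) were called in limma, 6 lowest and 2 highest in mouse 3, with a median difference of -0.12. Besides *Egr1* and *Junb*, the called genes with the widest range between mouse means were *Homer1*, a postsynaptic scaffold gene (log2 difference -0.47), *Per1*, a clock gene that also responds to CREB (-0.45), and *Klf2*, a zinc-finger factor, which was higher (0.41). For *Klf2*, the pairwise limma adjusted p of mouse 3 was 0.0157 against mouse 2 and 0.188 against mouse 1. Among 31 kinases and transcription factors that act upstream, 10 (32.3%) were called, 8 lowest and 2 highest in mouse 3. The transcription factor *Mef2c* fell by 0.95 in mouse 3, the SRF cofactors *Mkl1* and *Mkl2* by 0.56 and 0.57 and the kinase *Rps6ka3* by 0.48, and the kinase gene *Camk2a* rose by 0.53, all on the log2 scale.

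Of 20 tested partners, corepressors and decay factors, 7 (35.0%) were called in limma, 5 lowest and 2 highest in mouse 3, with *Egr1* counted here again. *Nab2*, a corepressor that binds EGR factors and is itself among their targets, fell by 0.55 on the log2 scale, and *Khsrp*, which promotes decay of AU-rich mRNAs, fell by 0.59. *Prmt1*, an arginine methyltransferase that binds BTG proteins, rose by 0.54. These shares of called genes lie around the 25.5% of all tested genes.

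The mean standardized profile of the 9 tested genes over the libraries was compared with other genes. It followed some of the 9 poorly, with r of 0.177 for *Btg2*, 0.268 for *Dusp1* and 0.379 for *Ier2*. The genes whose levels followed this mean profile most closely were *Phlda1* (Pearson's r = 0.975), *Xylt2* (0.968), *Kcnk1* (0.964), *Zbtb22* (0.961) and *Slc37a1* (0.960), over 8 libraries that come from only 3 brains. Within the set, *Egr3*, *Nr4a2* and *Nr4a3* had pairwise r of 0.917 to 0.958 over the 8 libraries, including those of mouse 3, where each was lowest. Over the 6 libraries of mice 1 and 2 alone, r was 0.685 for *Egr3* with *Nr4a2*, 0.371 for *Egr3* with *Nr4a3* and 0.335 for *Nr4a2* with *Nr4a3*. Pairs of the 9 genes then ranged from -0.59 (*Jun* with *Btg2*) to 0.979 (*Egr4* with *Btg2*). Among them were *Egr3* with *Dusp1* at 0.823 and *Nr4a3* with *Jund* at 0.859. Over the same 6 libraries r was 0.829 for *Egr4* with *Jund*, 0.979 for *Egr4* with *Btg2* and 0.831 for *Jund* with *Btg2*, the 3 genes that were lowest in library 1 of mouse 2. These values describe points that share libraries and brains, and no p was computed for them.

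The AU-rich letters ATTTA, which occur in the 3′ untranslated regions of many short-lived mRNAs, were counted on the sense strand in the 7 genes with a matching GENCODE transcript. *Dusp1* had 4 (5.80 per kilobase, above 95.6% of 9130 tested genes), *Jun* 4 (3.24), *Egr3* 7 (2.65), *Egr2* 3 (2.50) and *Nr4a3* 5 (1.62), while *Egr4* and *Ier2* had 0. At least 1 was thus present in 5 of 7 genes, against 69.3% of tested genes, and the median density was 2.50 per kilobase against 1.33.

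**Figure D5:**
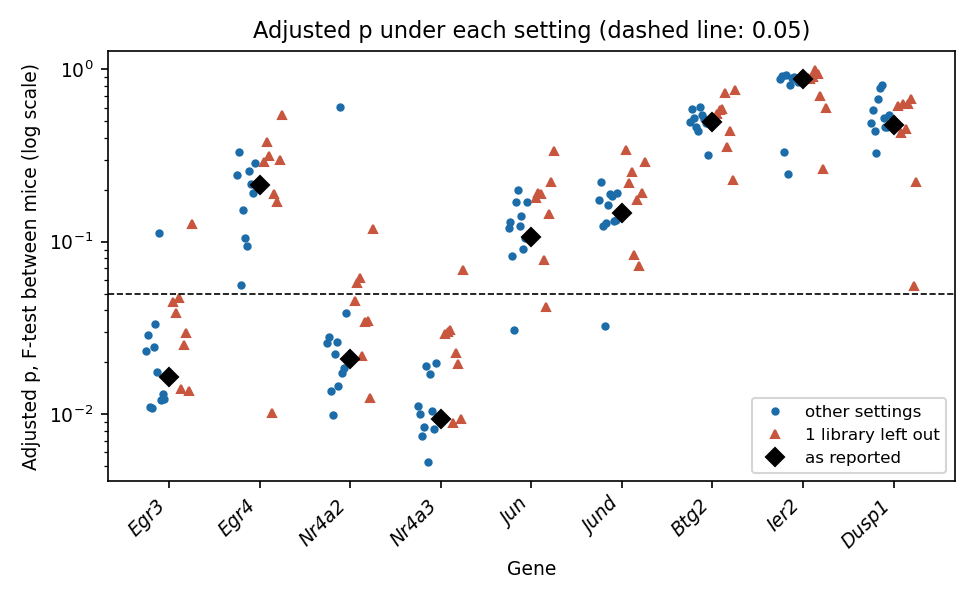
Adjusted p of limma's F-test between the mice for each of the 9 tested genes, on a log axis, as reported (diamonds), under the other settings (circles) and with 1 library left out (triangles). *Nr4a3* stays below the dashed line at 0.05 except without library 2 of mouse 3 (0.0684), and the circles of *Egr3* and *Nr4a2* above the line are the tests on the highest transcript (0.113 and 0.605).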

How the data were processed

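The authors deposited FPKM values per RefSeq transcript and library, with confidence bounds, lengths and a coverage signal per transcript that is not scaled for library size. The submitters' processing notes name TopHat, Cufflinks and mm10, without versions or a strand setting. RNA with an integrity score above a minimum was used for Kapa mRNA HyperPrep libraries and read on a NextSeq500 instrument. Depth was 1.31 to 2.02 gigabases on transcripts per library (deposited coverage multiplied by length), and FPKM are no counts, so precision is given as the spread between libraries or mice.

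Gene levels are sums of FPKM over transcripts, and means were taken per mouse and then over the 3 mice. Genes averaging 1 FPKM or more (13001) were tested between mice on log2(FPKM + 1) with limma 3.58.1 in R 4.3.3 and Benjamini-Hochberg adjustment (threshold 0.05), checked on simulated data. Such fold changes understate the change of low genes. Deposited starts were raised by 1 to count from 1. The genes were given by symbol; all 10 are named, with the 5 called genes of each comparison list with the largest range between mouse means, family members, and the 5 genes of most similar profile. A gene that this rule would name is not reported here. The genes and lists were chosen with earlier results of these data known. Motifs were matched in RefSeq windows on GRCm38.p6, the assembly that mm10 represents, and 3′ ends in GENCODE M21 transcripts within 10% of the deposited length. GC content was taken from the GENCODE transcript closest in length, without this limit. Python 3.11.15, pandas 2.3.3 and matplotlib 3.10.9 were used. Alternatives were the pseudocount, the minimum level, TPM, centring, trends with length or GC, the highest transcript, other limma settings, a replicate block and leaving out each library.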

Additional observations from a re-analysis of the deposited data

How the results depend on the processing

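Of the genes described, 3 were called (3310 of all genes). On the TPM scale these numbers were 5 and 5191, with *Jun* and *Jund* added, and 35.1% of the 14770 genes tested were called. With the highest transcript they were 1 and 2171, or 16.9% of the 12830 genes tested, against 25.5% of 13001 as reported. With a replicate block on the library number they were 3 and 2995, and 67.9% of calls were higher in mouse 3 against 55.4%. Deviations of same-numbered libraries correlated at 0.00276 to 0.107, and those of differently numbered libraries of different mice at -0.135 to 0.0645. Each deviation was taken from the mean of only a few libraries of its mouse. These values therefore cannot show whether the numbers pair the samples. Leaving out 1 library gave 0 to 4 of the genes described and 126 to 3860 of all genes. The lowest numbers came without library 2 of mouse 3, where 3 of the genes described and 3198 of all genes had an unadjusted p under 0.05 in limma and 68.3% of calls were higher in mouse 3. Without any 1 library of mouse 1, 1635 to 1835 genes were called. Mice 1 and 2 alone gave 0 of the genes described and 3 of all genes in limma, with 1 and 574 at an unadjusted p under 0.05, *Jund* being the former. Ordered by the median over libraries, 4 of 10 genes kept their rank.

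The log2 difference of mouse 3 changed sign for *Btg2* (-0.10 with TPM, -0.0105 without library 2 of mouse 3 and at most 0.30 with 1 library left out), *Ier2* (-0.21 with TPM, -0.19 with the length trend removed and -0.13 to 0.21 with 1 library left out) and *Dusp1* (-0.20, -0.0562 and -0.18 to 0.33 under the same 3). The cause was not tested. In the other 6 genes tested, the sign held under every setting run. Of 110 alternative levels, 4 moved by more than 1 SD: *Egr3* and *Nr4a2* by the highest transcript (9.67 and 4.26 FPKM) and *Ier2* without either library of mouse 3 (2.43 and 2.72 FPKM). With 3 brains, of which 1 stands apart, differences between individual mice and differences in the handling of their samples cannot be told apart.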
